A study of Homo sapiens with 64 samples.

Results

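BEAS-2B cells, an immortalised human bronchial epithelial cell line, were given both indacaterol and GSK256066, and their gene expression was set against that of cells given indacaterol alone after 6 h and 18 h. Samples were chosen by their titles: 16 of the 64 arrays of the series belong to the comparison. There were 8 arrays of cells given both drugs, 4 at 6 h and 4 at 18 h, and 8 arrays of cells given indacaterol alone, 4 at each time. Cells of the first kind received indacaterol at 10 nM together with GSK256066 at 10 nM, and cells of the second kind received only indacaterol at 10 nM, so the agonist was present in all 16 samples. At the same 2 times, 4 arrays each of cells given GSK256066 alone at 10 nM and of cells given vehicle served as the background. All cells had been grown in a serum-free keratinocyte medium with growth supplements and spent a last day in the medium without further additions named. The comparison asks whether the PDE4 inhibitor prolongs the response to the agonist. The labels number the replicates 1 to 4 but do not say whether they were separate cultures, so p-values measure only the spread between these arrays, which may be technical.

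Indacaterol is a long-acting agonist of the beta-adrenoceptor of airway cells, which couples through a stimulatory G protein to adenylyl cyclase and so raises cyclic AMP (cAMP). cAMP frees the catalytic subunits of protein kinase A (PKA), which phosphorylate the transcription factor CREB at cAMP response elements of promoters. Phosphodiesterases of the PDE4 family degrade cAMP, and GSK256066 is an inhaled PDE4 inhibitor; CREB also switches on genes that end the signal, among them PDE4D, PDE4B, CREM and SIK1.

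The median signal over all probe sets lay between 111.9 and 123 in these 16 arrays, on the deposited linear scale, while the highest signal lay between 544800 and 1082000 in the replicate 3 arrays and between 17220 and 18400 in the other 12. The epithelial keratins KRT18 (5661 to 8920) and KRT8 (3061 to 6330) were high, VIM was high as well (9928 to 12000), and markers that define leukocytes (PTPRC, 26.16 to 42.38), ciliated cells (FOXJ1, 9.527 to 25.1) and secretory cells (SCGB1A1, 29.53 to 77.32) were low; EPCAM was also low, at 28.69 to 157.8. Over all arrays but those of replicate 3, the 9 measured epithelial markers summed to between 9028.2 and 20175. There the 10 fibroblast markers, VIM among them, summed to between 22583 and 27486. In the replicate 3 arrays these sums were 17796 to 27429 and 21775 to 23833. Replicate 3 stood apart at every treatment and time. KRT5, a keratin of basal cells, had signals of 221.5, 169.9, 35120 and 124.8 in replicates 1 to 4 of both drugs at 6 h, against 148.9, 129, 34580 and 140 with indacaterol. The 16 measured genes of a list of 19 squamous and basal genes summed to between 428160 and 1555700 in the replicate 3 arrays, and to between 2092.5 and 5590.4 in all other arrays. In replicate 3 this sum was 1280700 with both drugs and 956850 with indacaterol at 6 h, against 595360 with GSK256066 and 532660 with vehicle, and 1555700 with both drugs and 968830 with indacaterol at 18 h, against 585280 with GSK256066 and 574400 with vehicle. In bulk RNA, fewer cells of a type and less RNA per cell cannot be told apart. Results that move with replicate 3 are given with and without it.

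HES5 and TSGA10 were the only genes of 19775 that separated cells given both drugs from cells given indacaterol alone, both higher with both drugs when the 6 h and 18 h arrays were combined (0.0101% of genes, limma adjusted p under 0.05). HES5 encodes a transcriptional repressor that acts downstream of Notch receptors, and TSGA10 a protein known from the sperm tail. HES5 (chromosome 1, 2528745 to 2530263 on GRCh38.p14) had signals of 176.6, 197.1, 177.9 and 172.6 with both drugs at 6 h, against 120.4, 112.4, 130.4 and 92.41 with indacaterol. The groups did not overlap at 6 h, as was so for 228 genes (1.15%) that were higher in every array of both drugs. At 18 h, HES5 had signals of 183.8, 164.3, 151.6 and 136 with both drugs, against 138.5, 97.21, 125.2 and 97.06 with indacaterol, and here the lowest value with both drugs lay just under the highest with indacaterol. The difference, both drugs minus indacaterol on the log2(signal + 16) scale, was 0.61 ± 0.129 (SE) at 6 h, 0.43 ± 0.129 at 18 h and 0.52 ± 0.0914 over both times (95% interval 0.33 to 0.70, limma adjusted p = 0.00666). Within replicate numbers, HES5 was higher with both drugs in 4 of 4 pairs at each time. In 12 genes (0.0607%) the groups did not overlap at either time, with both drugs higher, and HES5 was not among them. Neither time alone passed the test (limma adjusted p = 0.198 at 6 h and 1 at 18 h).

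HES5 is not one of the genes that the agonist induced: at 6 h its signals were 105.2, 103.2, 130 and 118.8 with GSK256066 and 141, 119.1, 123.3 and 152.5 with vehicle. Indacaterol thus stood 0.21 below vehicle on the log2 scale for HES5 and both drugs 0.40 above it at 6 h. The departure of HES5 from additivity over the late hours, that is the effect of both drugs minus the effects of each drug alone, was 0.58 ± 0.129 and did not pass the test (limma adjusted p = 0.284).

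TSGA10 (chromosome 2, 98997261 to 99154966) had signals of 173.3, 217.1, 172.3 and 185.2 with both drugs at 6 h, against 128.6, 131, 120.3 and 111.5 with indacaterol, and the groups did not overlap. At 18 h, TSGA10 had 174.2, 173.1, 159.2 and 137.7 with both drugs, against 138.8, 101.5, 145.7 and 98.48 with indacaterol. These overlapped only through the lowest array of both drugs, replicate 4. The difference for TSGA10 was 0.54 ± 0.11 (SE) at 6 h, 0.38 ± 0.11 at 18 h and 0.46 ± 0.0775 over both times (95% interval 0.31 to 0.62, limma adjusted p = 0.0046). Vehicle cells had TSGA10 signals of 138.3, 146.8, 138.9 and 145.4 at 6 h, between the 2 treated groups. The other 3 probe sets that name TSGA10 gave late differences of −0.04, 0.15 and −0.09, and with the mean over all its probe sets the difference was 0.12 (limma adjusted p = 1).

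Both calls leaned on replicates 2 and 4. Without replicate 2 of every group, neither HES5 nor TSGA10 passed the test (limma adjusted p = 1 for each), and without replicate 4 the adjusted p was 0.688 for HES5 and 0.158 for TSGA10. Leaving out only replicate 4 of indacaterol at 6 h gave an adjusted p of 0.0552 for HES5, and without replicate 3 of every group it was 0.0369. When the replicate number was used as a block, limma gave an adjusted p of 0.00317 for each. It then called 3 genes (0.0152%) over the late hours, all higher with both drugs. With arrays weighted by their quality it called 104 of 19775 genes. None of the 104 is among the 251 genes raised by both treatments at 2 h or the 124 raised at 6 h (0.627%). Those sets are themselves small shares of the 19775. The third gene called with the block was H3C7, a gene of the core histone H3. H3C7 had signals of 188.4, 244.1, 215.7 and 234.5 with both drugs at 6 h, against 157, 158.3, 189.6 and 148.1 with indacaterol, and 207.3, 207, 210.6 and 207.1 with both drugs at 18 h, against 152, 151.4, 188.7 and 139.3 with indacaterol. Its groups overlapped at 6 h by 1 array and did not overlap at 18 h, and its late difference was 0.39 ± 0.0858 (adjusted p = 0.26 without the block and 0.0388 with it).

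**Figure D1:**
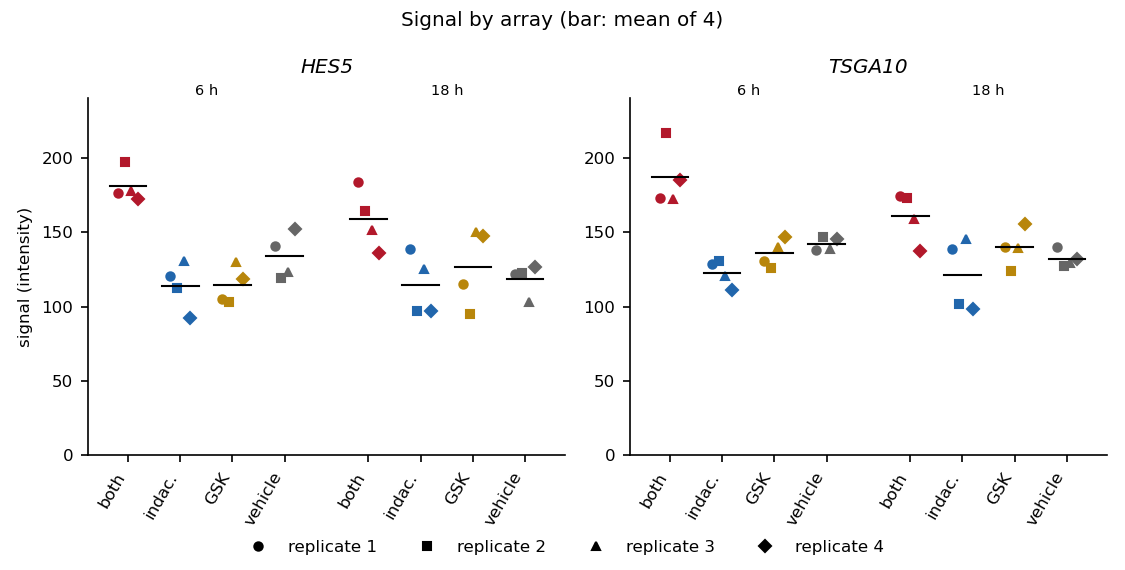
Array signals of HES5 and TSGA10 (vertical axis, deposited linear signal) in the groups at 6 h and 18 h (horizontal axis), with 1 point per array and a bar for the group mean. At 6 h the arrays of both drugs, 172.6 to 197.1 for HES5, all lie above those of indacaterol, whose highest is 130.4.

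At each time taken alone no gene was called. At 6 h, limma called 0 of 19775 genes with adjusted p under 0.05, and 345 (1.74%) had an unadjusted p under 0.05. At 18 h it called 0 genes, and 304 (1.54%) had an unadjusted p under 0.05. Over both times combined 502 genes (2.54%) had an unadjusted p under 0.05. With the replicate block, limma called 0 genes at either time, with 660 genes under an unadjusted p of 0.05 at 6 h, 494 at 18 h and 815 over both times. If no gene differed, 988.75 of the 19775 would be expected under 0.05, and each of these counts lies below that. The counts thus show no excess of small p-values. With fewer than expected, the absence of calls is not evidence that no gene differed. A gene's difference was known to within a median of ±0.277 on the log2 scale at each time (95% interval). For 97.1% of genes at 6 h and 97.2% at 18 h, the interval lay wholly within ±1.

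Among genes with an unadjusted p under 0.01 that did not pass the test, few of those with the greatest differences belonged to the agonist's response. At 6 h that response held only 0.627% of all genes as raised and 0.258% as lowered. At 6 h the lowest was WNT2, a secreted Wnt ligand, with a difference of −0.77, and the highest included TNNI3, cardiac troponin I, at 0.48 and H1-5, a linker histone, at 0.47. At 18 h they included RBAKDN, a non-coding RNA that both treatments raised at 6 h, with 74.74, 75.24, 56.91 and 76.3 with both drugs, against 40.11, 19.69, 52.58 and 73.82 with indacaterol. RBAKDN overlapped between the treatments and differed by 0.54 ± 0.186 (SE), or 0.70 without replicate 3. The lowest at 18 h included CABP4, a calcium-binding protein of photoreceptors, at −0.40 and BEST2, a chloride channel, at −0.39. Over both times they included ABO, the blood group glycosyltransferase, at 0.63 and CCKAR, a cholecystokinin receptor, at −0.65. Each of these had a limma adjusted p of at least 0.945 in the main fit. With arrays weighted by their quality, limma called 3 of the genes named here over the late hours. They were CCKAR (−0.892, limma adjusted p = 0.00383), ABO (0.745, adjusted p = 0.00704) and H1-5 (0.45, adjusted p = 0.0175).

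The agonist's response at 6 h was taken from both treatments together, as the mean of both drugs and of indacaterol minus vehicle, so that the genes were chosen without regard to the difference between the treatments. It held 124 raised genes (0.627%) and 51 lowered genes (0.258%) at a limma adjusted p under 0.05, or 1083 genes in all with the replicate block. None of the 124 passed the test between both drugs and indacaterol at 6 h, at 18 h or over both times. On the whole, the raised genes stood slightly higher with both drugs. At 6 h 110 of the 124 (88.7%) had a difference above 0, against 48.7% of all genes, and the median difference was 0.095 on the log2 scale, against −0.0031 over all genes. At 18 h 105 of the 124 (84.7%) were above 0, against 59.8% of all genes, with a median of 0.088 against 0.019 over all genes. Over both times 113 (91.1%) were above 0, against 54.2% of all genes. The wider set of 251 genes that both treatments raised at 2 h had 205 above 0 at 6 h (median 0.086) and 192 at 18 h (median 0.053), and without replicate 3 medians of 0.016 and 0.012. The 124 genes were chosen on the same 6 h arrays, and the 251 on the 2 h arrays, which the late comparison does not use. Genes of a set share arrays, so these counts are descriptions and carry no test.

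That small shift rested largely on replicate 3 at both times. Setting arrays of the same number against each other, the median difference of the 124 genes at 6 h was 0.145 in replicate 1, −0.022 in replicate 2, 0.264 in replicate 3 and −0.0047 in replicate 4. At 18 h it was −0.064, 0.085, 0.291 and 0.015 in replicates 1 to 4. Replicate 3 was the highest at each time, and the others lay on both sides of 0. With replicate 3 left out of every group, the median over both times was 0.027, against 0.09 with it. In replicate 3 the summed level of the squamous and basal genes was higher with both drugs at both times, but the 16 genes had a median difference of 0.025 there at 6 h and 0.061 at 18 h, with 9 of 16 above 0 each time, close to the 0.022 and 0.016 of all genes. Their part in the shift was not tested.

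**Figure D2:**
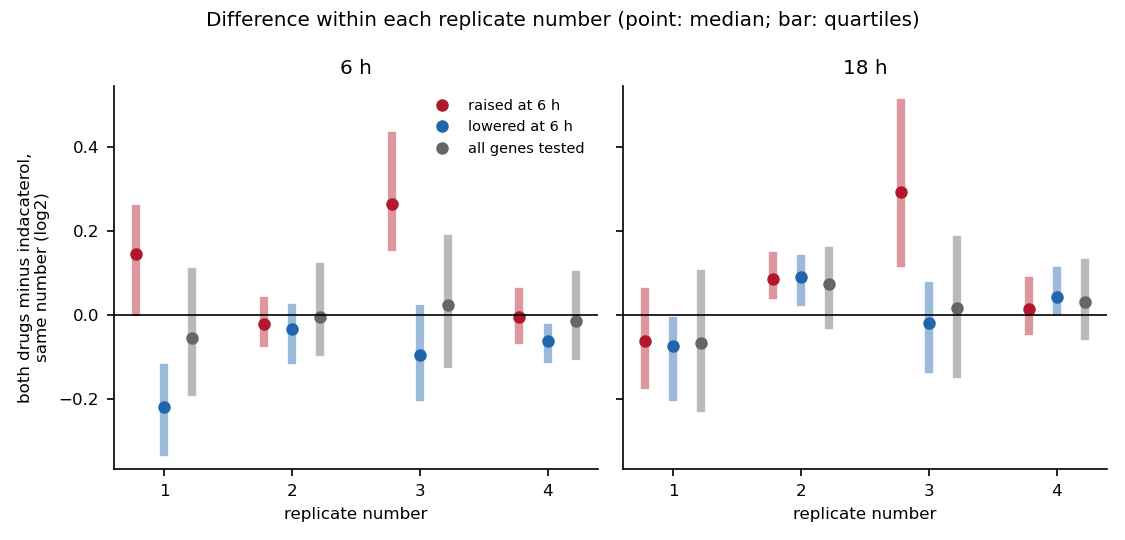
Difference between both drugs and indacaterol within each replicate number (vertical axis, log2 scale) for the 124 genes raised at 6 h, the 51 lowered at 6 h and all 19775 genes, at 6 h and 18 h; points are medians and lines run between the quartiles. The raised genes stand highest in replicate 3, at 0.264 at 6 h and 0.291 at 18 h.

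CRISPLD2, a secreted protein that glucocorticoids also induce, was the gene the agonist raised most at 6 h. It had signals of 4012, 2119, 1688 and 1873 with both drugs at 6 h, against 3175, 2095, 1517 and 2039 with indacaterol, 577, 340.1, 273.5 and 278.1 with GSK256066 and 415.3, 254.2, 220.2 and 236.2 with vehicle. The first 2 groups overlapped almost wholly, and CRISPLD2 differed between them by 0.10 ± 0.367 (SE). At 18 h CRISPLD2 had 888.5, 378.5, 349.9 and 325.7 with both drugs, against 764.8, 342.2, 253.6 and 298.1 with indacaterol and 561.8, 175.1, 183.6 and 182 with vehicle. It was higher with both drugs within every replicate number at 18 h, by 0.23 ± 0.367. This SE comes from the fit without the block, so it includes the spread between replicate numbers and does not measure that of the same-number differences. Replicate 1 was the highest array in every group of CRISPLD2 at both times.

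CSGALNACT1, which starts chondroitin sulfate chains, had signals of 1598, 678.3, 1229 and 903.1 with both drugs at 6 h, against 1330, 635.3, 729.9 and 762.6 with indacaterol and 146.4, 109.9, 95.48 and 159.6 with vehicle. At 18 h it was back near vehicle in both treatments: 108, 176.2, 143.3 and 167 with both drugs, against 211.1, 189.1, 98.61 and 178.9 with indacaterol and 123.2, 86.32, 116.4 and 166.3 with vehicle. The treatments overlapped at both times, and CSGALNACT1 differed by 0.33 ± 0.253 (SE) at 6 h and −0.15 ± 0.253 at 18 h, and by 0.20 and −0.35 without replicate 3.

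SLC7A2, a transporter of cationic amino acids, was higher with both drugs in every pair of arrays of the same number. It had signals of 2786, 1763, 2818 and 2327 with both drugs at 6 h, against 2202, 1727, 1698 and 2093 with indacaterol, and 937.5, 717.6, 969.8 and 688.7 with both drugs at 18 h, against 821.7, 610.2, 506.1 and 650.6 with indacaterol. The groups overlapped at both times, with 4 of 4 pairs higher each time. Its difference was 0.31 ± 0.193 (SE) at 6 h, 0.35 ± 0.193 at 18 h and 0.33 ± 0.136 over both times (limma adjusted p = 1). Without replicate 3 the SLC7A2 difference was 0.17 at each time.

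LINC00473, a long non-coding RNA known as a CREB target, had signals of 792.3, 683.1, 440.2 and 578.8 with both drugs at 6 h, against 553.4, 653.3, 225.9 and 612.2 with indacaterol and 179.8, 117.5, 64 and 95.61 with vehicle. At 18 h it had 162.4, 164.2, 253.2 and 153.2 with both drugs, against 151.7, 144.4, 103.6 and 131.4 with indacaterol, and here the treatments did not overlap. Of all genes, 110 (0.556%) were likewise higher in every array of both drugs at 18 h, and 103 (0.521%) lower. LINC00473 differed by 0.35 ± 0.328 (SE) at 6 h and 0.41 ± 0.328 at 18 h, and by 0.16 and 0.15 without replicate 3.

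The nuclear receptor NR4A2, an immediate CREB target that both treatments raised at 2 h, differed most in replicates 1 and 3. It had signals of 1285, 231.3, 1879 and 219.7 with both drugs at 6 h, against 419.9, 231.1, 390.3 and 176.5 with indacaterol. Replicate 2 was nearly the same in the 2 treatments, and the groups overlapped. NR4A2 differed by 1.02 ± 0.747 (SE) at 6 h and 0.47 ± 0.747 at 18 h, and by 0.62 and 0.11 without replicate 3. Its relative NR4A3 had 373.2, 67.36, 162.7 and 63.75 with both drugs at 6 h, against 257.9, 72.03, 73.58 and 57.55 with indacaterol, and 78.44, 14.62, 53.4 and 30.27 with both drugs at 18 h, against 50.72, 0.7572, 0.05072 and 9.272 with indacaterol. The 18 h signals of NR4A3 lay near the floor of the arrays in both treatments. It differed by 0.39 ± 0.579 at 6 h, or 0.18 without replicate 3. At 18 h its difference of 1.09 ± 0.579 depended on the pseudocount, at 2.77 with a pseudocount of 1 and 0.46 with 64, and is no measure of size.

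The remaining genes with the greatest rises at 6 h also overlapped between the treatments. STEAP4, a metalloreductase, had 1766, 1323, 1458 and 1306 with both drugs at 6 h, against 1503, 1432, 952.7 and 1313 with indacaterol and 396.8, 444.1, 209.6 and 406.1 with vehicle. STEAP4 had 614.9, 608.2, 672.2 and 449.9 with both drugs at 18 h, against 667.4, 599.5, 315.1 and 432.2 with indacaterol, where only replicate 3 held the treatments far apart. It differed by 0.18 ± 0.303 (SE) at 6 h and 0.25 ± 0.303 at 18 h, and by 0.04 and −0.01 without replicate 3.

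LPL, lipoprotein lipase, had 3575, 1063, 4689 and 1306 with both drugs at 6 h, against 2733, 1131, 3786 and 1301 with indacaterol. At 18 h LPL had 1137, 533.7, 2490 and 433.3 with both drugs, against 960.6, 483.8, 1174 and 445.2 with indacaterol. Replicates 1 and 3 were high in both treatments, and the groups overlapped. LPL differed by 0.15 ± 0.529 (SE) at 6 h and 0.35 ± 0.529 at 18 h, and by 0.10 and 0.11 without replicate 3. SMOC1, a secreted calcium-binding matrix protein, differed by 0.15 and 0.51, or 0.08 and 0.17 without replicate 3, and GALNT15, a mucin-type glycosyltransferase, by 0.25 and 0.15, or 0.22 and 0.03.

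SIK1, a kinase that restrains the CREB coactivators and was raised by both treatments at 2 h, had signals of 2274, 1030, 3604 and 795.3 with both drugs at 6 h, against 1402, 942.2, 1237 and 743.3 with indacaterol. At 18 h SIK1 had 770.4, 520.5, 1859 and 487.5 with both drugs, against 740.1, 436.1, 871 and 501.2 with indacaterol. It overlapped at both times and differed by 0.61 ± 0.385 (SE) and 0.34 ± 0.385, and by 0.30 and 0.09 without replicate 3.

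**Figure D3:**
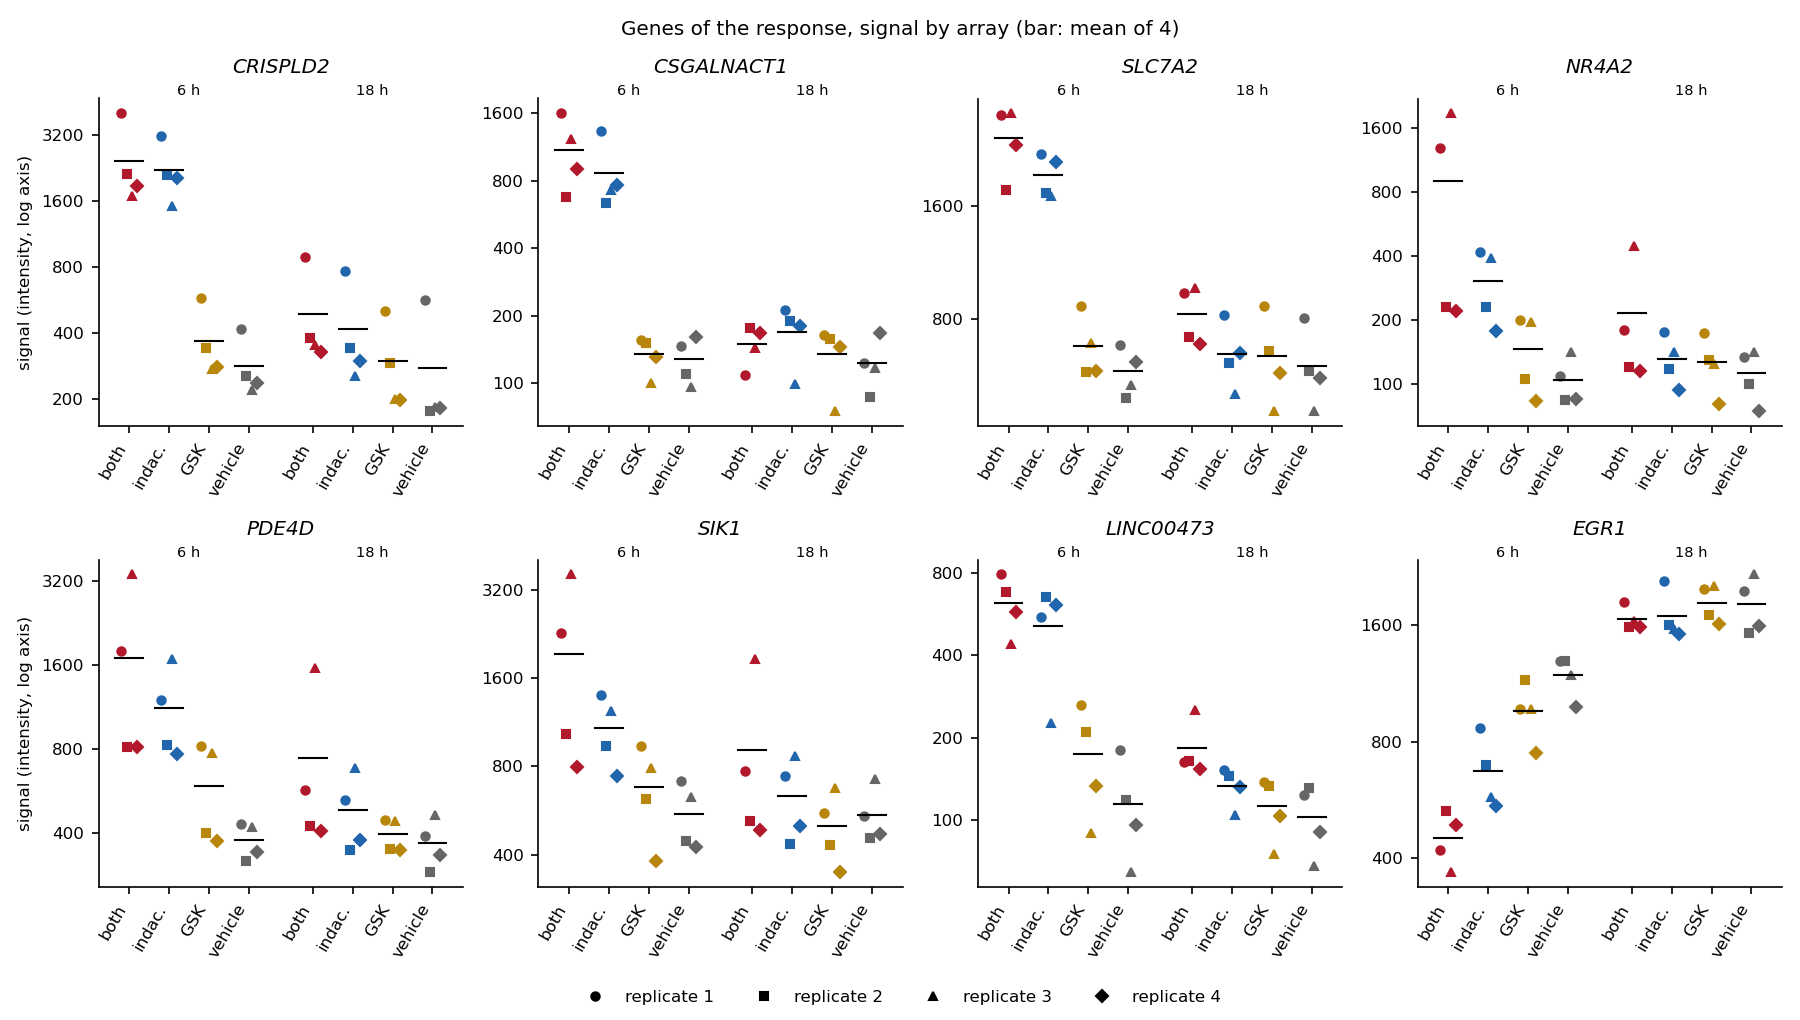
Array signals (vertical axis, deposited linear signal on a log scale) of 8 genes of the agonist's response in cells given both drugs, indacaterol, GSK256066 or vehicle for 6 h and 18 h, with 1 point per array and a bar for the group mean. CRISPLD2 stands apart from vehicle at 6 h with both drugs (1688 to 4012) and with indacaterol (1517 to 3175). NR4A2 and SIK1 were called as raised at 2 h and not at 6 h. Both treatments with indacaterol overlap with each other, except EGR1 at 6 h and LINC00473 at 18 h.

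CREB acts through the palindrome TGACGTCA or through its shorter form TGACG, which reads as CGTCA on the opposite strand, and both motifs were searched on both strands of the 300 bases around 1 RefSeq start site of each gene (250 before and 50 after, GRCh38.p14). A gene with several starts has a single window, which lies inside the annotated gene for TSGA10 and PDE4D. The palindrome contains the short motif on each strand. A promoter was found for 100 of the 124 raised genes: 37 of them (37.0%) held the short motif and 8 (8.0%) the palindrome, against 29.7% and 2.67% of the 15384 promoters of genes tested, and 25% and 1.98% of all 27305 promoters. Among 22 promoters of a list of known CREB targets, 15 (68.2%) held the short motif and 4 (18.2%) the palindrome. The windows of HES5 and TSGA10 held neither, nor did those of CRISPLD2 and PDE4D. Of the raised genes, 3 are shown because they carry these letters in different numbers: NR4A3 with 4 short motifs (chr9:99821635-99821934, plus strand), LINC00473 with 2 (chr6:165987990-165988289, minus strand) and PDE7B with the palindrome (chr6:135851451-135851750, plus strand). Each is written in the direction of transcription with the motif in capitals. A match describes letters in the window and not a bound site.
NR4A3: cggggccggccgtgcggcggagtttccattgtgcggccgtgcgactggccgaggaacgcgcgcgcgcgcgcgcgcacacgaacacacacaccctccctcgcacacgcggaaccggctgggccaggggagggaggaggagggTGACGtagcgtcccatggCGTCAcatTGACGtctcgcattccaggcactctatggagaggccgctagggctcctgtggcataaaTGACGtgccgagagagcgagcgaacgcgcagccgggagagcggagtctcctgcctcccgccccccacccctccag
LINC00473: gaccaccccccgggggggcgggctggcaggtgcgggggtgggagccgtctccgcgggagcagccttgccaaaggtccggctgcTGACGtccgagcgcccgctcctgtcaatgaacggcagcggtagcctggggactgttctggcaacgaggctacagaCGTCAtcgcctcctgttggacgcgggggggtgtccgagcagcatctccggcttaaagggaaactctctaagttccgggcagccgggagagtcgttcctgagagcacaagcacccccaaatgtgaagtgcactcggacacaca
PDE7B: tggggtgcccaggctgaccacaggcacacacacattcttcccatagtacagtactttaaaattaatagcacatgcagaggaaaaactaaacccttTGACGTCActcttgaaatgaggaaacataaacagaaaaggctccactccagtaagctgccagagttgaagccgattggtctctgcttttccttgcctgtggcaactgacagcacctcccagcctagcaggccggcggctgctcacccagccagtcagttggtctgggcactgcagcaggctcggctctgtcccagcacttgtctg

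PDE7B, the cAMP-specific phosphodiesterase whose promoter is shown above, belongs to the genes that end the signal. It had signals of 562.1, 419.8, 483.9 and 486.3 with both drugs at 6 h, against 433.7, 451.9, 400.1 and 467.7 with indacaterol. At 18 h PDE7B had 157.5, 162, 394.4 and 157.3 with both drugs, against 165.9, 152.2, 195.1 and 157.2 with indacaterol. Apart from replicate 3, the 18 h arrays differed hardly at all. PDE7B differed by 0.14 ± 0.222 (SE) at 6 h and 0.24 ± 0.222 at 18 h, and by 0.10 and 0.0045 without replicate 3.

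PDE4D, a gene of the inhibitor's own target family that both treatments raised at 2 h and 6 h, had signals of 1800, 815.7, 3384 and 816 with both drugs at 6 h, against 1205, 824.7, 1679 and 767.7 with indacaterol and 430.9, 318.1, 420.5 and 340.8 with vehicle. At 18 h PDE4D had 572.5, 423.3, 1569 and 408.4 with both drugs, against 527.2, 347.5, 685.8 and 376.2 with indacaterol. The treatments overlapped at both times. PDE4D differed by 0.41 ± 0.442 (SE) at 6 h and 0.42 ± 0.442 at 18 h, and by 0.21 and 0.17 without replicate 3.

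The rest of the genes that end cAMP signals moved little between the treatments. Of a list of 27 (phosphodiesterases, CREM, RGS2, SIK1, receptor kinases, arrestins, PKA inhibitors and the cAMP exporter ABCC4), 24 were measured and 0 passed the limma test at either time or over both. At 6 h 13 of the 24 stood above 0 with a median of 0.015, and at 18 h 18 of 24 with a median of 0.07; without replicate 3 the medians were 0.00044 and 0.011. PDE10A, which degrades cAMP and cGMP, had differences of 0.40 ± 0.145 (SE) at 6 h and 0.16 at 18 h, or 0.29 and 0.07 without replicate 3. PDE4B, which both treatments raised at 2 h, differed by 0.15 and 0.11 at 6 h and 18 h, and by 0.0048 and −0.0027 without replicate 3. PDE4A differed by −0.01 and 0.03, and PDE3A by 0.20 and 0.07, or 0.06 and −0.10 without replicate 3. Upstream, 24 of 27 listed genes for the receptor, the G protein, adenylyl cyclases, PKA subunits and CREB with its coactivators were measured, and again 0 passed. Their medians were 0.011 at 6 h and 0.0012 at 18 h, or −0.008 and −0.042 without replicate 3, and over both times the cyclase ADCY4 differed by −0.32 ± 0.143 (limma adjusted p = 1).

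Of the list of 26 CREB targets, 23 were measured and none passed the test. At 6 h 18 of the 23 stood above 0 with a median of 0.212, and at 18 h 20 of 23 with a median of 0.142, against −0.0031 and 0.019 over all genes. Within replicate numbers their median at 6 h was 0.159, 0.0012, 0.633 and 0.044 in replicates 1 to 4, and at 18 h −0.061, 0.112, 0.48 and 0.056, again highest in replicate 3. Without replicate 3 the list's median was 0.069 at 6 h and 0.038 at 18 h. DUSP1, a phosphatase that switches off MAP kinases, had 10760, 10140, 10270 and 9723 with both drugs at 6 h, against 9639, 9875, 6610 and 9432 with indacaterol; the groups did overlap, and its late difference was 0.19 ± 0.0848 (SE, limma adjusted p = 1), or 0.06 without replicate 3.

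EGR1, an immediate-early transcription factor, was lowered by both treatments at 6 h. It had signals of 420.3, 530.3, 367.3 and 487.7 with both drugs at 6 h, against 866.8, 694.6, 575.8 and 543.9 with indacaterol, 973.6, 1156, 972.3 and 749.2 with GSK256066 and 1291, 1292, 1189 and 984.5 with vehicle. The arrays of both drugs all lay below those of indacaterol, as did those of 159 genes (0.804%) at 6 h. The EGR1 difference between both drugs and indacaterol was −0.54 ± 0.205 (SE), with a 95% interval of −0.96 to −0.13, and did not pass the test (limma adjusted p = 1). Without replicate 3 the EGR1 difference was −0.52. At 18 h EGR1 had 1835, 1586, 1640 and 1583 with both drugs, against 2087, 1602, 1565 and 1523 with indacaterol, and the difference was −0.02.

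Of the 51 genes lowered at 6 h, 4 stood above 0 at 6 h, with a median of −0.082, and 24 stood above 0 at 18 h, with a median of −0.0039. None passed the test. RBM12, an RNA-binding protein, had 1589, 1947, 1409 and 2338 with both drugs at 6 h, against 2466, 2265, 1576 and 2437 with indacaterol and 3118, 2910, 2530 and 3394 with vehicle. RBM12 overlapped and differed by −0.27 ± 0.152 (SE) at 6 h and 0.04 at 18 h. F3, tissue factor, differed by 0.00 at 6 h and 0.03 at 18 h, or −0.13 and −0.05 without replicate 3. At 6 h the median of the set was below 0 in all replicate numbers (−0.22, −0.034, −0.095 and −0.063 in replicates 1 to 4); at 18 h it lay on both sides of 0. The median of all genes in replicate 1 at 6 h was itself −0.057.

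The duration of the response can be read from each treatment against vehicle, where both comparisons share the same vehicle arrays and are given side by side. At 6 h both drugs minus vehicle gave 98 raised genes (0.496%) and 52 lowered ones (0.263%), and indacaterol minus vehicle gave 45 raised (0.228%) and 8 lowered (0.0405%) at a limma adjusted p under 0.05. At 18 h both drugs gave 4 raised genes (0.0202%) and 3 lowered ones (0.0152%), and indacaterol gave 1 raised gene, FSD2 (0.00506%), and 0 lowered. With the replicate block the 6 h counts were 1046 (5.29%) for both drugs and 458 (2.32%) for indacaterol, and the 18 h counts 80 (0.405%) and 7 (0.0354%). GSK256066 alone gave 0 genes at 6 h and at 18 h with limma, with 345 (1.74%) and 700 (3.54%) genes under an unadjusted p of 0.05. A gene called against vehicle in one treatment and not in the other is not thereby different between them, and the direct test called no gene at either time.

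For the 124 raised genes, the median level above vehicle at 6 h was 0.748 with both drugs and 0.592 with indacaterol, against 0.089 with GSK256066. At 18 h it was 0.169 with both drugs and 0.079 with indacaterol, against 0.017 with GSK256066. Most of the rise was gone by 18 h in both treatments. These genes were chosen for their rise in the 6 h arrays, which favours their level at 6 h over that at 18 h. By replicate number, the median at 18 h was 0.099, 0.188, 0.26 and 0.12 with both drugs, against 0.155, 0.092, −0.05 and 0.105 with indacaterol. In replicate 1 indacaterol stood higher, and in replicate 3 the gap was widest.

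**Figure D4:**
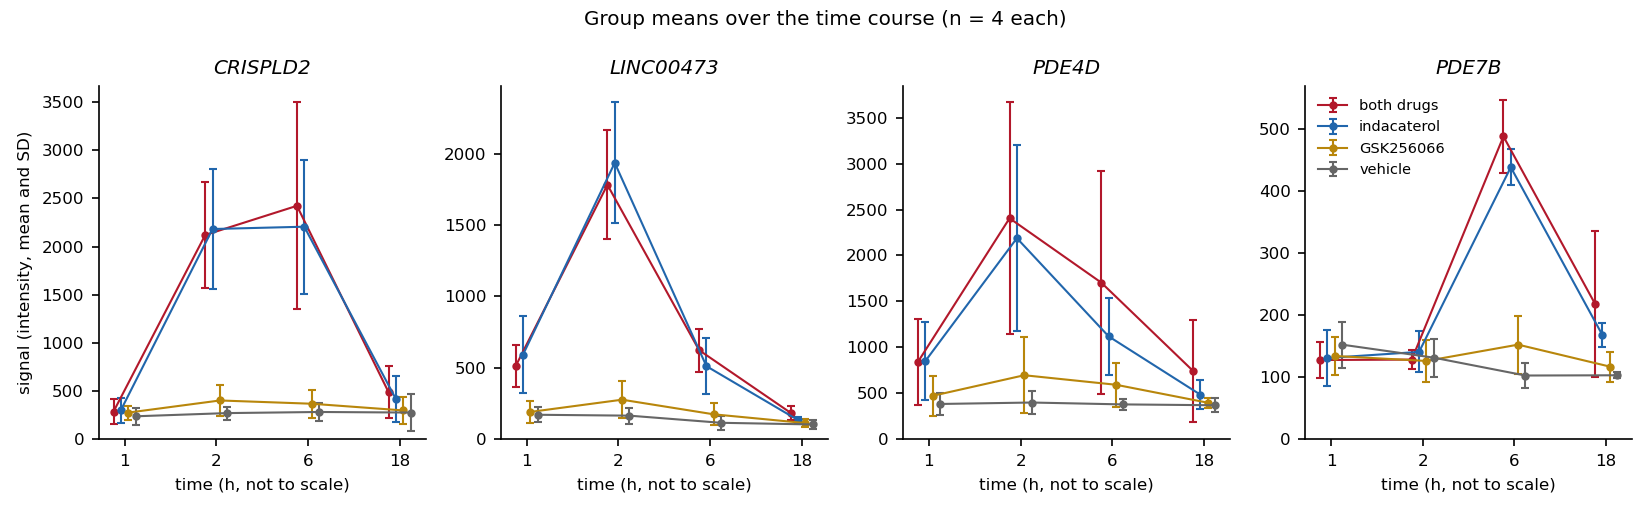
Signals (vertical axis, deposited linear signal; points are means and bars SD over 4 arrays) of CRISPLD2, LINC00473, PDE4D and PDE7B at 1, 2, 6 and 18 h for both drugs, indacaterol, GSK256066 and vehicle. The curves of both drugs and indacaterol rise and return together, with overlapping bars at 18 h.

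Few genes still answered at 18 h. The mean of both treatments against vehicle gave 4 raised genes, FSD2, CRYGN, P4HTM and DDRGK1 (0.0202%), and 3 lowered ones, CLIC5, TNS1 and TMEM158 (0.0152%). With the replicate block it gave 71 raised (0.359%) and 49 lowered (0.248%). P4HTM, a membrane-bound prolyl hydroxylase, had 1716, 1671, 1704 and 1634 with both drugs at 18 h, against 1571, 1507, 1553 and 1549 with indacaterol and 1319, 1331, 1278 and 1303 with vehicle. DDRGK1, an adaptor of protein ufmylation, had 2364, 2356, 2299 and 2341 with both drugs, against 2233, 2146, 2066 and 2226 with indacaterol. Neither gene's groups overlapped, as was so for 110 genes (0.556%) that were higher in every array of both drugs at 18 h. Both genes were chosen on these same 18 h arrays. The differences were small: 0.12 ± 0.0588 (SE) for P4HTM and 0.11 ± 0.0544 for DDRGK1. CLIC5, a chloride channel protein, had 167.5, 335.3, 157.9 and 268.5 with both drugs, against 319, 291, 273.8 and 306.7 with indacaterol (−0.40 ± 0.197). FSD2 and CRYGN differed by −0.03 and −0.05, and TNS1 and TMEM158 by −0.11 and −0.14.

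The genes called at 18 h with the block were described likewise. Of the 71 raised, 59 stood above 0 for both drugs minus indacaterol at 18 h, against 59.8% of all genes. Their median was 0.092, against 0.019 over all genes. In replicates 1 to 4 it was 0.0411, 0.0815, 0.0857 and 0.0596, against −0.0662, 0.0731, 0.0156 and 0.0307 over all genes. Without replicate 3, 62 of the 71 stood above 0, with a median of 0.0693. Of the 49 lowered, 11 stood above 0, with a median of −0.04. By replicate number it was −0.216, 0.0856, −0.122 and 0.00901. Both sets were chosen on the 18 h arrays, so these counts carry no test. No gene of either set passed the test between the treatments. Whether the difference changed between the times was tested directly, as the 18 h difference minus the 6 h difference. limma called 0 genes, with 142 (0.718%) under an unadjusted p of 0.05. The median 95% interval was ±0.391 on the log2 scale, or ±0.318 with the block. These intervals are not adjusted for the number of genes, so a typical gene would need a greater change to be called. The departure from additivity over the late hours likewise gave 0 genes, with 540 (2.73%) under an unadjusted p of 0.05, and its median over the 124 raised genes was 0.039.

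**Figure D5:**
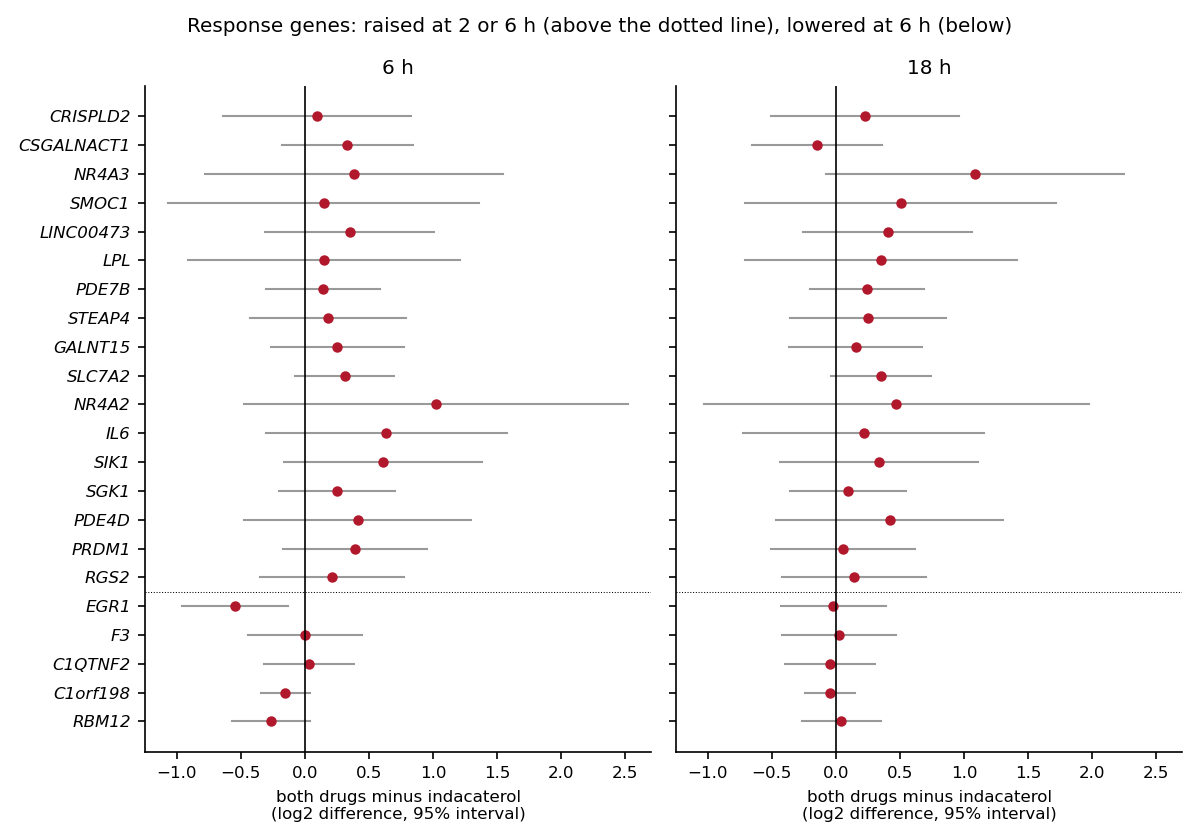
Difference between both drugs and indacaterol (horizontal axis, log2 scale, with 95% interval) at 6 h and 18 h for 22 genes of the agonist's response, raised genes above the dotted line and lowered genes below it. Of the genes drawn, EGR1 at 6 h has an interval below 0 (−0.96 to −0.13), and SLC7A2 at 18 h runs from −0.03 to 0.74.

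Genes that glucocorticoids induce in airway cells were followed because beta-agonists raise some of them. Of 22 listed, 20 were measured and 5 were raised by both treatments at 6 h, CRISPLD2, SGK1, CEBPD, RGS2 and DUSP1. Between both drugs and indacaterol none passed the test, with 16 of 20 above 0 at 6 h (median 0.079) and 15 of 20 at 18 h (median 0.055). Within replicate numbers the 6 h median was 0.069, −0.005, 0.31 and −0.022 in replicates 1 to 4, and without replicate 3 the medians were 0.033 at 6 h and 0.031 at 18 h. SGK1, a kinase that regulates ion transport, differed by 0.25 at 6 h and 0.10 at 18 h, or 0.11 and 0.02 without replicate 3. RGS2, which shortens G-protein signals, differed by 0.21 and 0.14, or 0.09 and 0.02.

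Secreted mediators gave no called gene either. Of 31 cytokines and chemokines 30 were measured, with 20 above 0 at 6 h (median 0.055) and 22 at 18 h (median 0.056); without replicate 3 these were 14 and 15 genes, with medians of −0.036 and 0.0039. IL6 differed by 0.63 ± 0.469 (SE) at 6 h and 0.22 at 18 h, or 0.30 and −0.05 without replicate 3. CXCL5, a neutrophil chemokine, differed by 0.48 and 0.31, or −0.07 and −0.23. Of 26 growth and vascular factors 24 were measured, with 15 above 0 at 6 h and 16 at 18 h, or 8 and 14 without replicate 3, and none passing the test. EREG, a ligand of the EGF receptor, differed by 0.64 and 0.30, or 0.39 and 0.10 without replicate 3, and BMP2 by 0.43 and −0.07, or 0.19 and −0.33.

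Interferon-stimulated genes stood mostly above 0 at 6 h and mostly below it at 18 h, with no gene passing the test. Of 20 measured out of 22 listed, 17 stood above 0 at 6 h (median 0.174) and 2 at 18 h (median −0.175). Without replicate 3 the medians were 0.049 and −0.202. The antiviral genes MX1 and RSAD2 differed by 0.37 and 0.44 at 6 h, or 0.17 and 0.20 without replicate 3, and by −0.18 and −0.30 at 18 h. The 6 h median was above 0 in replicates 1 to 3 (0.127, 0.203 and 0.502) and below it in replicate 4 (−0.16), and the 18 h median was below 0 in all 4 (−0.33, −0.151, −0.115 and −0.079). Of 28 mitotic genes 2 stood above 0 at 6 h (median −0.099) and 22 at 18 h (median 0.02), against 48.7% and 59.8% of all genes. Without replicate 3 these were 1 and 14 genes, with medians of −0.127 and 8.46e-05. By replicate number their 6 h median was −0.246, −0.0485, −0.086 and −0.069 in replicates 1 to 4. MKI67, the proliferation antigen, had 1479, 1281, 1324 and 1329 with both drugs at 6 h, against 1857, 1486, 1444 and 1520 with indacaterol (−0.21 ± 0.142, SE). Its groups overlapped only through replicate 1 of both drugs. Of 22 cholesterol synthesis genes 16 were measured and 4 stood above 0 at 6 h, against 48.7% of all genes, with a median of −0.061. That fall came from replicate 1, where the list's median was −0.154 and that of all genes −0.0566. In replicates 2 to 4 the list's median was 0.0151, −0.00128 and −0.000776.

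PDK4, a kinase that inhibits pyruvate dehydrogenase, was chosen after its values were seen. It had 3890, 482.6, 7834 and 376.6 with both drugs at 6 h, against 1680, 401.4, 3225 and 308.5 with indacaterol, 1053, 123.3, 1699 and 63.62 with GSK256066 and 442.7, 57.35, 929.3 and 29.56 with vehicle. Within each replicate number the order was the same in all 4: both drugs, indacaterol, GSK256066, vehicle. PDK4 differed between both drugs and indacaterol by 0.75 ± 1.47 (SE) at 6 h and 0.60 at 18 h without the block, or 0.58 and 0.37 without replicate 3; it was higher with both drugs in 4 of 4 pairs at each time, and with the block the late difference had a limma adjusted p of 0.24.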

How the data were processed

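RNA of 64 BEAS-2B samples was labelled and hybridised to Affymetrix 3′ expression arrays, per the labels' protocols. The authors deposited one table of linear signal intensity per probe set; the submitters' processing notes name PLIER and the Transcriptome Analysis Console 4, with other settings not given in the sources used here. Each intensity was turned into log2(signal + 16) from the deposited values, with no further normalization. Of 54675 probe sets, 41091 had 1 gene symbol on the platform annotation, 41037 of them named through the gene ID; 1801 named several genes and 11721 none. For each of 19775 genes 1 probe set was used, the one whose mean signal was highest. Models were fitted with limma 3.58.1 in R 4.3.3 across all 16 groups without a block (48 residual degrees of freedom), and p-values were adjusted by Benjamini-Hochberg over all genes. SE in the text is the SE of the fitted difference over groups of 4 arrays, from the fit without the block. It therefore includes the spread between replicate numbers. The number of arrays limits the precision.

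Samples were grouped by their titles. Arrays of the same replicate number deviated together from their group means. Between both drugs and indacaterol, r was 0.332, 0.682, 0.773 and 0.786 at 6 h and 0.219, 0.682, 0.77 and 0.703 at 18 h. The highest r with another number was 0.104, 0.582, 0.0295 and 0.652 at 6 h, and 0.169, 0.674, −0.0669 and 0.604 at 18 h. The same number was higher each time, though hardly so for replicate 2 at 18 h. The numbers were taken to pair the arrays, and the fit with the number as a block is an alternative. No 2 arrays were identical. The other alternatives were quantile normalization, pseudocounts of 1 and 64, a filter on genes with a mean signal under 50, the mean over probe sets, array weights, only the arrays of the times compared, and leaving out replicates or single arrays. Genes named in the text are those called, up to 5 a direction short of the test with an unadjusted p under 0.01, the greatest responses at 2, 6 and 18 h, and members of the lists. The members, gene lists and tests were chosen with earlier results of these data known. Promoters come from RefSeq (GRCh38.p14). The 13522 probe sets with no single gene are described only in the closing section.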

Additional observations from a re-analysis of the deposited data

Results flagged for a closer look

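Among the genes named by rule, 18 of 212 groups of 4 arrays (8.49%) held an array far from the other 3 by Dixon's test, where chance gives about 1 in 20. Of the response genes, CRISPLD2 stood at 888.5 in replicate 1 of both drugs at 18 h, LINC00473 at 253.2 in replicate 3 of both drugs at 18 h and at 225.9 in replicate 3 of indacaterol at 6 h, and PDE7B at 394.4 in replicate 3 of both drugs at 18 h. NR4A3 stood at 257.9 in replicate 1 of indacaterol at 6 h, PRDM1, a transcriptional repressor, at 75.84 in replicate 3 of indacaterol at 18 h, and EGR1 at 2087 in replicate 1 of indacaterol at 18 h. Of the genes that answered at 18 h, P4HTM stood at 1594 in replicate 4 of indacaterol at 6 h, and CRYGN at 40.73 in replicate 1 of both drugs at 6 h.

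The other arrays set apart belonged to genes that did not pass the test between the treatments. WNT2 stood at 127.8 in replicate 4 of both drugs at 18 h and at 83.84 in replicate 4 of indacaterol at 6 h. CCIN stood at 106.6 in replicate 1 of both drugs at 6 h and at 55.13 in replicate 1 of indacaterol at 18 h. With both drugs at 18 h, RBAKDN stood at 56.91 in replicate 3 and SNORD8 at 66.38 in replicate 2. With indacaterol at 18 h, ADAMTS16-DT stood at 272.4 in replicate 1, ZCWPW1 at 323.8 in replicate 3 and CCKAR at 146.4 in replicate 2.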

How the results depend on the processing

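For both drugs against indacaterol, limma called 0 genes at 6 h, at 18 h and for the change between the times, and 2 or 3 over the late hours, under all alternatives except these. With array weights it called, of 19775 genes, 6 at 6 h, 8 at 18 h, 104 over the late hours and 31 for the departure from additivity. Of the 104, 78 were higher and 26 lower, and 22 had a mean signal under 50. None was among the 251 genes raised at 2 h or the 124 raised at 6 h (0.627% of all genes). CD48, raised at 18 h with the block, was lower with both drugs (−0.265), and RAX2, lowered at 2 h, was higher (0.245). Weights of replicate 3 had a median of 0.538. With the mean of all probe sets it called 1 gene over the late hours, and with the arrays of the late times alone 1 for the departure. Leaving out a replicate or an array gave 0 to 2 calls over the late hours and 0 to 1 for the departure. The count of the shared response moved most: with the replicate block it was 1050 at 2 h, 1083 at 6 h and 120 at 18 h, with the replicate block within each time 1419, 1538 and 210, with the replicate block but without replicate 3 686, 582 and 11, with array weights 1015, 583 and 94, and with only the arrays of each time 189, 116 and 0. Quantile normalization gave 316 at 6 h. Without single replicates or arrays the 2 h count lay between 174 and 362, the 6 h count between 77 and 211 and the 18 h count between 0 and 15. The median difference of the genes raised at 6 h lay then between 0.0358 and 0.136 at 6 h, between 0.0179 and 0.138 at 18 h and between 0.0267 and 0.12 over both; of those raised at 2 h from 0.0156 to 0.125, −0.0207 to 0.0976 and 0.0112 to 0.093. For the genes lowered at 6 h it ran from −0.114 to −0.0555, −0.0262 to 0.0243 and −0.0699 to −0.0102. Their 18 h median of −0.0039 turned to 0.0137 with the replicate block without replicate 3, 0.0183 with the mean of all probe sets and 0.0346 with array weights. Without replicate 3, an alternative for the gene lists that was chosen after seeing the data, the median turned to −0.00797 at 6 h and −0.0422 at 18 h for receptor, cyclase and PKA genes, and at 6 h to −0.0364 for cytokines and −0.0278 for growth factors. The cause was not tested. The replicate block changed no other call between the treatments than H3C7.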

Other observations

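Few genes kept the treatments apart in every array at both times. Those higher in all arrays of both drugs at 6 h and at 18 h were 12 of 19775 (0.0607%): ADAD1, ADAMTS16-DT, FGF16, FMNL1, HNRNPL, LINC00280, LINC02297, LPAR4, MZT2B, OPRM1, PLIN5 and SPATA24. They include FGF16, a fibroblast growth factor, LPAR4, a receptor for lysophosphatidic acid, OPRM1, the mu-opioid receptor, and PLIN5, a lipid droplet protein. Those lower at both times were 3 (0.0152%): CNTNAP5, LIX1 and SNORD8, a small nucleolar RNA. None of these 15 is a gene of the agonist's response at 6 h, which held only 0.627% of all genes as raised and 0.258% as lowered. None passed the test between the treatments in the main fit. With array weights limma called FMNL1, SPATA24, LIX1, SNORD8, FGF16, HNRNPL, PLIN5 and LINC00280 over the late hours, and not the others.

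The genes raised at 6 h and those raised at 2 h were partly the same: 62 genes were in both sets, 50% of the 124 and 24.7% of the 251. At 1 h and 2 h both drugs against indacaterol also gave 0 genes with limma, with 249 and 256 genes under an unadjusted p of 0.05.

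Among 13522 probe sets with no single gene name, 1 was called over the late hours (limma adjusted p = 0.0105), 525 having an unadjusted p under 0.05, and 0 at 6 h or at 18 h, where 314 and 366 had one.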
